A study of Gallus gallus with 6 samples.

Results

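Chemokines and their receptors were followed in monoblasts of the chicken, early cells of the monocyte and macrophage line, that had been transformed by deltaP v-Myb or by wild type v-Myb. Members were all probe sets whose only gene symbol begins with CCL, CXCL, CX3CL, IL8L, CXCR or CX3CR, or with CCR and a digit. They came to 35 of 38535 probe sets and stood for 24 of the 13051 genes with a probe set of their own, 14 chemokine genes and 10 receptor genes. The cells were primary cultures from Brown Leghorn birds. They were moved to culture 16 days after infection and grown in medium with bovine and chicken serum. The deltaP v-Myb group had 3 biological replicates and the wild type v-Myb group had 3. Both groups carried a v-Myb oncoprotein, a transcription factor known from avian myeloblastosis virus, so neither gives the level in untransformed monoblasts. The series title names the leucine zipper region of v-Myb, but what deltaP alters in the protein is not stated in the labels.

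Chemokines are small secreted proteins that guide white blood cells along a gradient, and their receptors pass the signal on through G proteins. CC, CXC and CX3C chemokines are named for the spacing of their first cysteines. Monocytes and macrophages both respond to chemokines and make them, and many chemokine genes are switched on by NF-kB during inflammation.

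Each value is a deposited log2 expression value of 1 probe set on 1 array, so a difference of 1 is a doubling. For every probe set the same-numbered deltaP and wild type arrays had the same mean in all 3 pairs, to within 0.001 log2 units. A value of a single array is therefore a position within its pair and not a measured level, and the data hold 3 independent differences for each probe set. Groups that do not overlap are then the same thing as a difference of 1 sign in all 3 pairs. Errors are the SD of the 3 pair differences (deltaP minus wild type), and tests are two-sided limma tests that keep the replicate number as a block. The p-values measure the spread of these differences only, which may be partly technical. The number of arrays limits their precision. The median difference of the added poly-A control RNAs was 0.71 in pair 3, and that of the hybridization controls was 0.50. In pairs 1 and 2 these medians lay between -0.18 and 0.04.

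Cell type markers were read for the label of the cells. SPI1, the gene of the myeloid transcription factor PU.1, averaged 13.68 in deltaP cells and 13.56 in wild type cells. CSF1R, the macrophage growth factor receptor gene, averaged 12.51 in deltaP cells and 12.82 in wild type cells. Among 14 monocyte and macrophage markers on the arrays 11 passed the filter described below, while MARCO, CD86 and TREM2 did not. Among 16 fibroblast and stromal markers 2 passed, FAP and COL3A1. FAP averaged 8.46 in deltaP cells and 8.77 in wild type cells, and COL3A1 averaged 4.23 in deltaP cells and 4.18 in wild type cells. Among 9 endothelial markers 1 passed (PECAM1, which leukocytes also carry). Of all non-control probe sets 42.1% passed.

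Some genes listed as markers of other blood cells passed the filter too. Which cells carried these transcripts was not tested. Of 10 heterophil and granulocyte markers 7 passed, 2 higher and 5 lower in deltaP cells, with a median log2 difference of -0.39. The defensin gene AvBD7 averaged 15.23 in deltaP cells and 15.55 in wild type cells, and AvBD1 averaged 14.18 in deltaP cells and 14.63 in wild type cells. The cathelicidin gene CATH1 averaged 14.61 in deltaP cells and 15.36 in wild type cells (limma adjusted p = 0.421). The 2 higher on average were LECT2 (0.39) and CSF3R (0.02). The summed linear signal of these 10 markers was 71969 to 106993 in deltaP arrays and 109709 to 165887 in wild type arrays. Such sums, here and below, are built from positions within pairs, so their ranges are not measured levels of a group. The sums over the 10 markers did not overlap, but they are led by the brightest genes and do not speak for the list as a whole. Single markers did not overlap in 1 of the 7 tested (CATH1), against 32.5% of all tested probe sets. In pair 3 AvBD7, AvBD1 and DEFB4A were slightly higher in deltaP (0.05, 0.08 and 0.15), as was LECT2 (0.27). CATH1 was lower in that pair (-0.27), as were the less bright LYG2 (-0.13) and CSF3R (-0.11). Among the brightest genes the lower deltaP sum of pair 3 thus came from CATH1. Of 4 thrombocyte markers only F13A1 passed, with pair differences of -0.293, -0.997 and -2.003, and macrophages express this gene as well. The sum over the 4 was 1669 to 3009 in deltaP arrays and 3682 to 6650 in wild type arrays. It is nearly all F13A1, as ITGB3, GP9 and THBS1 stayed under the filter, and so adds nothing beyond that gene. Of 7 erythroid markers 5 passed, 3 higher and 2 lower. TFRC had pair differences of -0.02, 0.97 and 1.32, a 1.69-fold higher mean (limma adjusted p = 0.511), and GYPC had -0.78, -0.59 and -0.15. GYPC passed the filter only through its wild type values (4.41, 4.31 and 4.09), so its lower sign was fixed by the filter. The haemoglobin genes had 1.76, -0.04 and -2.94 (HBA1) and 2.91, 0.29 and -2.65 (HBAD). Among the 3 higher was ALAS1, matched through the entry ALAS2, which averaged 7.99 in deltaP cells and 7.79 in wild type cells. The list therefore does not rest on ALAS2 itself. The sum over the 7, ALAS1 included, was 746 to 844 in deltaP arrays and 567 to 757 in wild type arrays. The part of these markers in the chemokine values below was not tested.

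Most of the family was dim. Only probe sets above a log2 value of 4 on 3 or more of the 6 arrays were tested, a condition that 7 of the 35 member probe sets met. These 7 stood for 5 chemokine genes (IL8L1, IL8L2, CCL4, CCLL4 and CCL17) and 2 receptor genes (CXCR4 and CX3CR1). The other 28 probe sets never exceeded the filter value of 4 on any array, and their highest single value was 3.78. Their means over the 6 arrays ran from 2.10 to 3.01, near the floor that the background correction leaves, and do not show absence of the transcript. A single value is only a position within its pair, so signal on a single array cannot be judged from it.

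**Figure D1:**
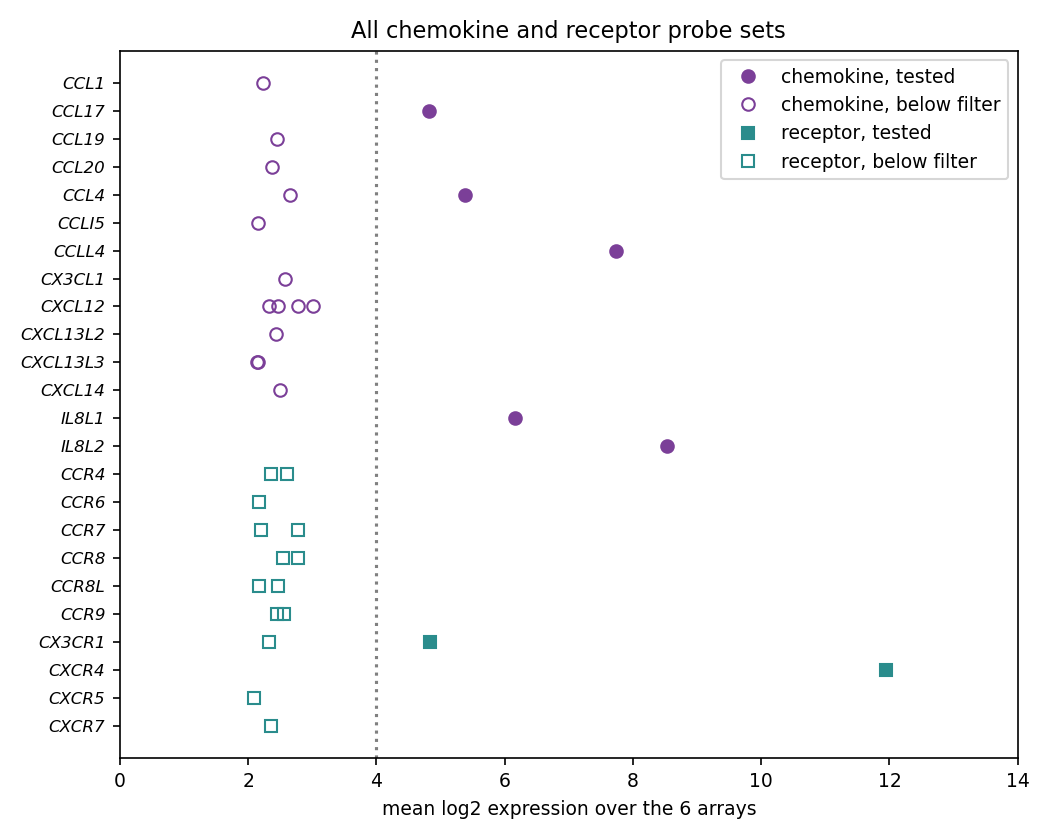
Mean deposited log2 expression over the 6 arrays (horizontal axis) of every chemokine and receptor probe set, by gene. Filled marks are the 7 tested probe sets, open marks the 28 that stayed below the filter value of 4 (dotted line), with circles for chemokines and squares for receptors. Levels of different probe sets are not comparable with each other, and the mark of each is to be read against the dotted line only.

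None of the 7 tested probe sets passed an adjusted p of 0.05 over all 16199 probe sets tested, of which 0 (0%) passed. At an unadjusted limma p under 0.05 there were 2 members, 1 higher and 1 lower in deltaP cells, in a table where 9.26% of all tested probe sets did so (3.6% higher and 5.66% lower). With a replicate number left out the count of members was 1 without replicate 1 (4.14% of all tested probe sets in that fit), 5 without replicate 2 (9.03%) and 2 without replicate 3 (12.1%), where CXCR4 stood in place of IL8L1. With all pairs, the deltaP and wild type values did not overlap for the same 2 members, IL8L2 and IL8L1, and overlapped for the other 5. Over all tested probe sets 32.5% did not overlap (16.1% higher and 16.4% lower in deltaP).

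**Figure D2:**
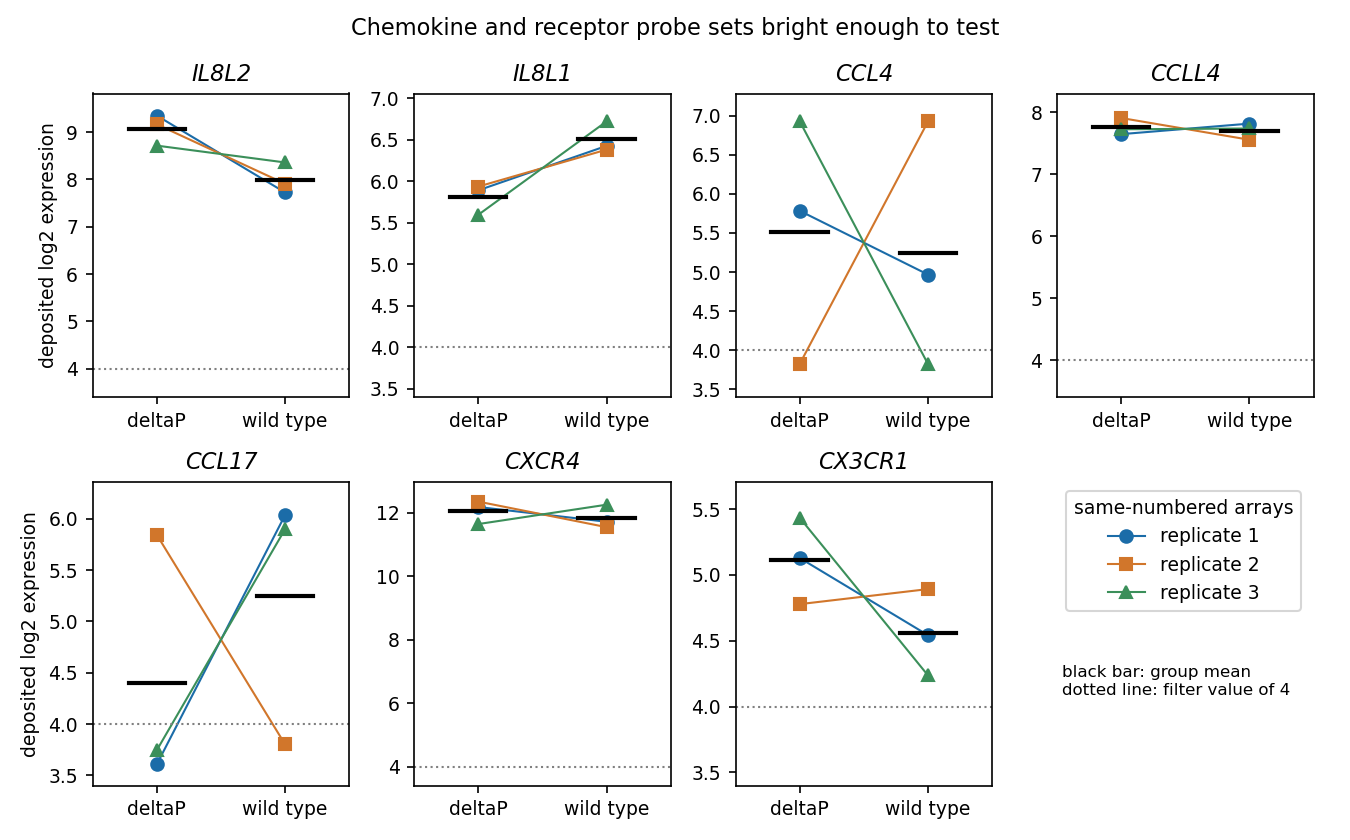
Deposited log2 expression (vertical axis) of the 7 tested members in deltaP cells (left) and wild type cells (right) of each panel, with lines joining same-numbered arrays and black bars for group means. IL8L2 lies above the wild type values in all deltaP arrays and IL8L1 below them, while the lines of the other 5 do not all slope the same way.

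The pair of inflammatory CXC chemokines had mean differences of opposite sign, neither past the adjusted threshold. IL8L1 and IL8L2 are the chicken counterparts of the human neutrophil attractant CXCL8, and in birds they draw heterophils and monocytes. IL8L2 (Entrez gene 396495, also called CXCLi2) had values of 9.35, 9.16 and 8.71 in deltaP replicates 1, 2 and 3, against 7.72, 7.91 and 8.36 in wild type replicates 1, 2 and 3. All deltaP values lay above all wild type values, and the gap was smallest in pair 3. The mean log2 difference was 1.08 ± 0.65 (SD, n = 3 pairs), a 2.11-fold higher mean in deltaP cells. By pair it was 1.62, 1.25 and 0.36. The 95% confidence interval in limma ran from 0.42 to 1.74, the unadjusted p was 0.00781 and the adjusted p 0.359. The IL8L2 probe set is of a kind that can bind several related transcripts.

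IL8L1 (Entrez gene 395872, also called K60) had values of 5.89, 5.93 and 5.59 in deltaP replicates 1, 2 and 3, against 6.42, 6.38 and 6.72 in wild type replicates 1, 2 and 3. All deltaP values lay below all wild type values, and the gap was widest in pair 3. The mean log2 difference was -0.70 ± 0.37 (SD, n = 3 pairs), a 1.63-fold lower mean in deltaP cells. By pair it was -0.54, -0.44 and -1.12. The 95% confidence interval in limma ran from -1.25 to -0.15, the unadjusted p was 0.0214 and the adjusted p 0.441. Without the replicate block the adjusted p in limma was 0.0475 for IL8L2 and 0.0442 for IL8L1, in a fit that counts more degrees of freedom than the centred values hold and that called 6.91% of all tested probe sets (26.4% at an unadjusted p under 0.05). The exact sign-flip permutation test over the 3 pairs gave 0.25 for each gene, the smallest p that 3 pairs allow.

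The difference of IL8L2 exceeded that of IL8L1 by 2.16, 1.70 and 1.48 log2 units in pairs 1, 2 and 3. The mean of this gap was 1.78 ± 0.35 (SD, n = 3 pairs), a comparison made after the values were seen and given with no test. The 2 genes are next to each other in the RefSeq gene table of chicken assembly GRCg7b, on chromosome 4, with no other protein-coding gene starting between them. The controls of pair 3 given above were shifted up in deltaP, the pair in which the IL8L1 difference was widest and that of IL8L2 smallest, and their part in these results was not tested.

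**Figure D3:**
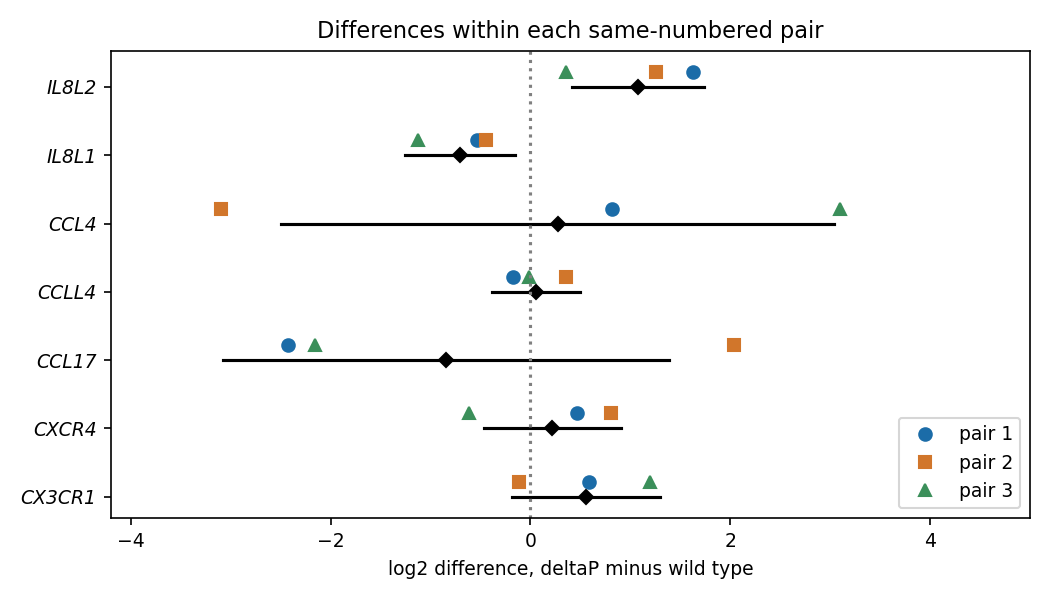
Log2 difference, deltaP minus wild type (horizontal axis), of the 7 tested members. Coloured marks are the 3 same-numbered pairs, the black diamond is their mean and the black line its 95% confidence interval in limma. The intervals of IL8L2 and IL8L1 lie on opposite sides of 0, and the pair differences of CCL4 and CCL17 spread over more than 4 log2 units.

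Of the tested members, the CC chemokine genes CCL4 and CCL17 had the widest spread between pairs, and the CC chemokine gene CCLL4 the narrowest. CCL4 (Entrez gene 395468) encodes a chemokine that attracts monocytes and lymphocytes, known in mammals as macrophage inflammatory protein 1 beta. It had values of 5.78, 3.82 and 6.93 in deltaP replicates 1, 2 and 3, against 4.97, 6.93 and 3.82 in wild type replicates 1, 2 and 3. The deltaP array was the higher one in pairs 1 and 3 and the lower one in pair 2, and the groups covered nearly the same range. Its pair differences were 0.82, -3.10 and 3.10, with a mean of 0.27 ± 3.14 (SD, n = 3 pairs). The limma interval ran from -2.50 to 3.04 and the adjusted p was 0.957, so the data leave the size and the sign of a CCL4 difference undetermined. The mean was 1.96 without replicate 2 and -1.14 without replicate 3. A second CCL4 probe set stayed at the floor, with a mean of 2.66 over the 6 arrays.

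CCL17 (Entrez gene 415652) encodes a chemokine that in mammals is made by dendritic cells and macrophages and attracts T cells through the receptor CCR4. It had values of 3.61, 5.84 and 3.75 in deltaP replicates 1, 2 and 3, against 6.04, 3.80 and 5.90 in wild type replicates 1, 2 and 3. The deltaP array was the lower one in pairs 1 and 3 and the higher one in pair 2. In every pair the lower array, deltaP or wild type, was under the filter value of 4. Its pair differences were -2.43, 2.04 and -2.15, with a mean of -0.85 ± 2.51 (SD, n = 3 pairs), a limma interval from -3.08 to 1.38 and an adjusted p of 0.795. Without replicate 2 the mean difference was -2.29 (limma adjusted p = 0.334), and it was -0.06 without replicate 1 and -0.19 without replicate 3.

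The SDs of the CCL4 and CCL17 pair differences were larger than those of 99.96% (CCL4) and 99.84% (CCL17) of all tested probe sets. Both probe sets had values on either side of the filter. CCL17 was above it on 3 of the 6 arrays, the fewest allowed, with a mean of 4.82, and CCL4 on 4, with a mean of 5.38. The median SD over all tested probe sets was 0.29. Each of the 2 genes had 1 pair whose difference ran against the other pairs, and in both it was pair 2. Of 17 T and B lymphocyte markers with a probe set 5 were tested, 3 higher and 2 lower on average in deltaP cells, and CD4, CD8A, LCK and ZAP70 stayed under the filter. Among the subunit genes of the T cell receptor complex, CD3D had pair differences of -1.17, 1.07 and -1.63, CD3E had 0.41, 2.52 and -2.19, and CD247 had 0.57, 0.60 and -0.01. The costimulatory receptor gene CD28 had -0.53, 0.17 and -0.38, and SH2D6, matched through BLNK, had 0.18, 0.44 and 0.31. The signs of CD3D and CD28 were those of CCL17 in all 3 pairs and the opposite of those of CCL4. Those of CD3E, CD247 and SH2D6 were neither. Such 3 signs per gene are too few for a measure of likeness. The summed linear signal of the 17 markers was 3281 to 4883 in deltaP arrays and 3231 to 5050 in wild type arrays. The part of these markers in the CCL17 values was not tested, and in bulk RNA fewer cells of a type cannot be told apart from less RNA per cell.

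CCLL4 (Entrez gene 417464), a CC chemokine gene like CCL4, had close group means, 7.76 in deltaP cells and 7.70 in wild type cells. Its values were 7.65, 7.91 and 7.72 in deltaP replicates 1, 2 and 3, against 7.82, 7.56 and 7.74 in wild type replicates 1, 2 and 3. The pair differences of -0.17, 0.35 and -0.01 had a mean of 0.06 ± 0.27 (SD, n = 3 pairs), and the limma interval was -0.39 to 0.50 (adjusted p = 0.942). This probe set can also bind several related transcripts. In the GRCg7b table both lie on chromosome 19, with CCLL4 next to TRIM58 and CCL4 between LOC395551 and CCL5. CCL17 and CX3CL1 are neighbours on chromosome 11.

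Of the receptors, CXCR4 (Entrez gene 395324), the receptor of CXCL12 that in mammals keeps blood precursors in the bone marrow, was far above the filter value on every array. It had values of 12.18, 12.35 and 11.64 in deltaP replicates 1, 2 and 3, against 11.72, 11.55 and 12.25 in wild type replicates 1, 2 and 3. The deltaP array was the higher one in pairs 1 and 2 and the lower one in pair 3. The pair differences of 0.46, 0.81 and -0.61 had a mean of 0.22 ± 0.74 (SD, n = 3 pairs), with a limma interval from -0.47 to 0.91 and an adjusted p of 0.831. The mean was 0.63 without replicate 3 (limma adjusted p = 0.206), -0.07 without replicate 2 and 0.10 without replicate 1. All 4 probe sets of its ligand CXCL12 were at the floor, with means between 2.32 and 3.01.

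CX3CR1 (Entrez gene 420719), the receptor of CX3CL1 that marks monocytes in mammals, was close to the filter. It had values of 5.13, 4.78 and 5.43 in deltaP replicates 1, 2 and 3, against 4.54, 4.89 and 4.24 in wild type replicates 1, 2 and 3. The deltaP array was the higher one in pairs 1 and 3, while in pair 2 the wild type array was slightly higher. The pair differences of 0.59, -0.11 and 1.20 had a mean of 0.56 ± 0.66 (SD, n = 3 pairs), with a limma interval from -0.19 to 1.30 and an adjusted p of 0.628. The mean was 0.89 without replicate 2 and 0.24 without replicate 3. A second CX3CR1 probe set, which stayed at the floor, had a mean of 2.32. CX3CR1 lies between CCR8 and CCR4 on chromosome 2 in the GRCg7b table, and all probe sets of those 2 neighbours were at the floor.

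The dim members made up 17 genes, 9 chemokine genes and 8 receptor genes. The chemokine genes were CCL1, CCL19, CCL20, CCLI5, CX3CL1, CXCL12, CXCL13L2, CXCL13L3 and CXCL14. The receptor genes were CCR4, CCR6, CCR7, CCR8, CCR8L, CCR9, CXCR5 and CXCR7, the last also known as the scavenging receptor ACKR3. Several receptor and ligand partners were thus dim together, among them CCR6 with CCL20, which draws lymphocytes to mucosal tissue, and CCR7 with CCL19, which leads dendritic cells and lymphocytes to lymphoid organs in mammals. CXCR5 and the CXCL13-like genes, which in mammals organise B cell follicles, were dim as well. Other partners were split: CCL17, CX3CR1 and CXCR4 were tested, while CCR4, CX3CL1 and CXCL12 were dim. Most of the family was dim, so partners that are dim together show no shared pattern.

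Over the 25 dim probe sets other than those of CCR7 and CCL19, no pair difference exceeded 0.20 in either direction. One CCR7 probe set had values of 2.75, 3.78 and 2.79 in deltaP replicates 1, 2 and 3, against 2.79, 1.76 and 2.74 in wild type replicates 1, 2 and 3. The array that stood out was deltaP replicate 2 with its partner, and the other CCR7 probe set had a largest pair difference of 0.06. CCL19 had pair differences of -0.27, -0.06 and 0.79.

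A pair of probe sets that the annotation assigns to several genes was not counted among the members. The one shared by CCL5 and LOC395551, a neighbouring gene for which the table lists CCL4 as a synonym, was at the floor with group means of 2.17 in deltaP cells and 2.14 in wild type cells. The one shared by TRIM58 and CCLL4 had pair differences of -0.29, 0.93 and 0.49 (limma adjusted p = 0.73). CCR2, and CCL5 on its own, were not analysed here.

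Genes that carry the chemokine signal inside the cell were split in direction. Of 29 tested signalling genes 16 were higher and 13 lower in deltaP cells, where 49.4% of all tested probe sets were higher and 50.6% lower, with a median log2 difference of 0.02 (all tested probe sets, -0.0033 over the pairs and between -0.05 and 0.02 within them). At an unadjusted limma p under 0.05 there were 2 higher and 1 lower, and 0 passed the adjusted threshold, with backgrounds of 3.6%, 5.66% and 0%. RGS1, which shortens signalling of chemokine receptors by speeding G protein shut-off, had pair differences of 1.89, 0.44 and 0.97, a 2.14-fold higher mean (limma adjusted p = 0.421). PREX1, an activator of RAC GTPases downstream of G protein subunits, had -1.24, -0.32 and -0.41, a 1.58-fold lower mean (limma adjusted p = 0.469). The transcription factor gene STAT3 had 0.64, 0.34 and 0.37, a 1.37-fold higher mean (limma adjusted p = 0.475). ELMO1, part of a RAC activator in cell migration, had 0.24, 0.43 and 0.16 (limma adjusted p = 0.562).

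Of 23 tested NF-kB and inflammatory response genes 14 were higher and 9 lower in deltaP cells, with a median log2 difference of 0.06. At an unadjusted limma p under 0.05 there were 3 higher and 0 lower, and 0 passed the adjusted threshold. Over all tested probe sets these shares were 3.6%, 5.66% and 0%. IL18, a cytokine gene of macrophages, had pair differences of 0.71, 0.29 and 0.63, a 1.46-fold higher mean (limma adjusted p = 0.394). The acute phase gene SAA had 0.99, 0.46 and 1.19 (limma adjusted p = 0.351), and the adaptor gene MYD88 had 0.51, 0.28 and 0.67 (limma adjusted p = 0.387). BIRC2, an inhibitor of apoptosis in NF-kB signalling, had 0.05, 0.25 and 0.42 (limma adjusted p = 0.628). The list medians within pairs were 0.13, 0.24 and -0.19. IL1B and RELA were among 9 genes of this list that were too dim to test.

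Of 7 tested genes among other chemoattractant and atypical receptors and their partners 4 were higher and 3 lower in deltaP cells, with a median log2 difference of 0.11. The medians within pairs were 0.02, 0.06 and -0.52, so pair 3 ran the other way. At an unadjusted limma p under 0.05 there were 2 higher and 1 lower, and 0 passed the adjusted threshold (3.6%, 5.66% and 0% of all tested probe sets). P2RY6, a receptor for extracellular nucleotides such as UDP, had values of 9.96, 9.97 and 9.92 in deltaP replicates 1, 2 and 3, against 9.17, 9.16 and 9.20 in wild type replicates 1, 2 and 3. The groups did not overlap, and the pair differences of 0.79, 0.81 and 0.72 were nearly equal (mean 0.77 ± 0.05, SD, n = 3 pairs, 1.71-fold, limma adjusted p = 0.249). DPP4, a cell surface peptidase that trims and inactivates several chemokines in mammals, had pair differences of -0.55, -0.38 and -0.52, a 1.40-fold lower mean (limma adjusted p = 0.351). C3AR1L, matched through C3AR1, the symbol of the complement C3a receptor, had 1.36, 0.57 and 0.34, a 1.69-fold higher mean (limma adjusted p = 0.421). PTAFR, the receptor of platelet activating factor, had 2.57, 1.62 and -0.54 (limma adjusted p = 0.599), and its groups overlapped. ACKR2, which in mammals removes CC chemokines without signalling, was also tested and had a mean difference of -0.40 (limma adjusted p = 0.662), a gene named after its values were seen.

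**Figure D4:**
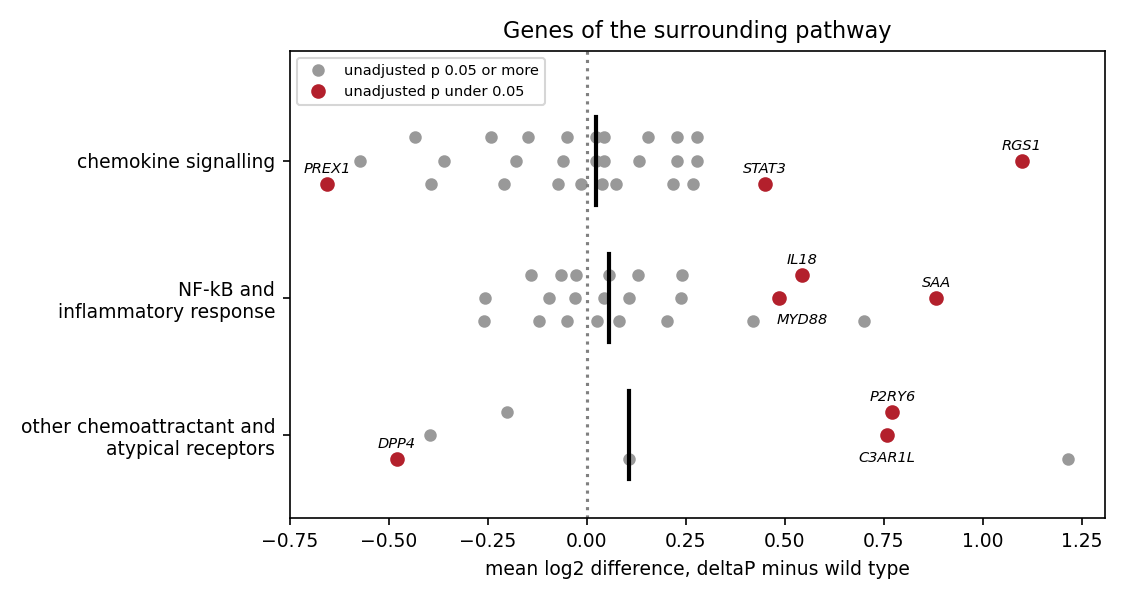
Mean log2 difference, deltaP minus wild type (horizontal axis), of each tested gene in the 3 lists of surrounding genes, 29, 23 and 7 genes from top to bottom. Red marks have an unadjusted limma p under 0.05, grey marks do not, and black bars are list medians (0.02, 0.06 and 0.11). Vertical position within a list carries no value, and no gene shown passed the adjusted threshold.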

How the data were processed

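Total RNA of 6 monoblast cultures was hybridized, 1 array per culture. The authors deposited log2 values, 1 per probe set and array, and the submitters' processing notes list Partek 6.4 and GCRMA. GCRMA corrects background from probe sequence, normalizes arrays by quantiles and pulls dim probe sets to a floor, so fold changes near the floor are unreliable. Depth has no meaning for these values.

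Same-numbered arrays were checked for pairing. The correlation of their deviations from the group means was -1 in all 3 pairs, so the replicate number had been removed from the values, a step not given in the sources used here, and it was used as a block. Labels do not say what same-numbered cultures share. Non-control probe sets with log2 over 4 in at least 3 arrays (16199, 42.1%) were tested with limma 3.58.1 (lmFit and eBayes with an intensity trend, R 4.3.3, Benjamini-Hochberg over all of them). The procedure was tested on simulated data with independent noise for each probe set. Those data held no shift shared by many probe sets of a pair. The simulation therefore could not cover a shift like that of the controls in pair 3.

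Symbols came from the platform annotation of 2016, and all 24 member symbols were unchanged in the RefSeq gene table of GRCg7b, which also gave neighbours. Coordinates are left out, since the array annotation names no build. Genes of the other lists were represented by their probe set of highest mean and matched by symbol or synonym. In each list of signalling, inflammatory and chemoattractant genes, up to 4 tested genes with the smallest p were named, and ACKR2 was added. The genes named from the cell type marker lists were not picked by that rule. Members, lists, tests and the use of the block were chosen with earlier results of these data known. Alternatives covered the block, the filter, the prior, the scaling, 1 probe set per gene and leaving out each replicate number.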

Additional observations from a re-analysis of the deposited data

How the results depend on the processing

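With the replicate block 0 members passed the adjusted threshold, and without the replicate block 2 did (IL8L2 and IL8L1). That fit counts degrees of freedom that the centred values do not hold. In the other 10 alternatives the number stayed 0. The number of members with an unadjusted p under 0.05, 2 with all pairs, was 1 to 5 when a replicate number was left out. It was 1 without replicate 1 (IL8L2), 5 without replicate 2 (IL8L1, IL8L2, CCL4, CCL17 and CX3CR1) and 2 without replicate 3 (IL8L2 and CXCR4). In the 3 surrounding lists 9 genes had an unadjusted p under 0.05, 18 without the replicate block and 4 (without replicate 1) to 18 (without replicate 3) when a replicate number was left out. Over all tested probe sets that share was 9.26% with all pairs, 26.4% without the block, 4.14% without replicate 1, 9.03% without replicate 2 and 12.1% without replicate 3. IL8L2 kept its direction in all 11 alternatives (0.81 to 1.44, limma adjusted p 0.0475 to 0.9998), as did IL8L1 (-0.83 to -0.49, limma adjusted p 0.0442 to 0.9998). Most of this was fixed in advance. The block, the filter and the prior leave the mean difference as it is. Leaving out a replicate number cannot turn a sign that all 3 pairs share. With a replicate number left out the log2 difference of CCL4 ran from -1.14 to 1.96, that of CCLL4 from -0.091 to 0.17 and that of CXCR4 from -0.073 to 0.63, each changing sign in 1 alternative. The causes were not tested. Scaling by medians or quantiles changed no direction or call among the members. With log2 over 6 as the filter 4 member probe sets were left, so CCL4, CCL17 and CX3CR1 have no value there. IL8L1 passed that filter only through its wild type values (6.42, 6.38 and 6.72), so its direction there was fixed by the filter. Signal over background limits the 28 dim probe sets.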
